A study of Rattus norvegicus with 6 samples.

Results

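The genes described here make, store, clear and break down gamma-aminobutyric acid (GABA), anchor its receptors, or encode a subunit of its metabotropic receptor GABA-B, and their mRNA levels were read in rat medial prefrontal cortex (mPFC) after 1 injection of lysergic acid diethylamide (LSD), a hallucinogenic agonist of serotonin receptors. The 8 genes Gad1, Gad2, Slc6a11, Slc6a13, Slc32a1, Abat, Gphn and Gabbr1 were taken as a functional family, and every probe set whose platform annotation gives exactly 1 of these symbols and no other gene was taken. All 8 genes had at least 1 probe set, which gave 13 of the 8740 probe sets tested, for 8 of 4736 genes. Male Sprague-Dawley rats of 250 to 275 g were given 1.0 mg/kg LSD tartrate intraperitoneally, or saline, and were decapitated after 90 min. The labels give no age. Expression was read on 6 Affymetrix rat genome arrays, 3 from rats given LSD and 3 from rats given saline, as titles and treatment labels state. The labels give 4 rats per group with tissue pooled for RNA extraction, whereas the study describes each array as a pool of its own pair of rats. P-values here therefore reflect how far the arrays of a group differ, and that spread may be technical. The second line of each sample description names the opposite treatment from that in its title, and under that reading every sign given here would turn.

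GABA is the main inhibitory transmitter of the cortex. Interneurons make it from glutamate with the glutamate decarboxylases GAD67 and GAD65, load it into vesicles and release it onto ionotropic GABA-A and metabotropic GABA-B receptors, after which transporters on neurons and astrocytes take it up and GABA transaminase breaks it down. Serotonin 2A receptors, the main target of LSD, are found on cortical pyramidal cells and on a share of interneurons.

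The 6 arrays correlated with one another at r between 0.984 and 0.996 over all probe sets tested, and 0 pairs were identical. Saline 1 stood apart, since 78 of its probe sets deviated by over 1 log2 unit from the average of the remaining arrays (71 of them upward), while each other array had between 2 and 21 such probe sets. None of the 13 probe sets described here deviated that far on any array, and the farthest was 0.87 log2 units, on Saline 1. The 3' minus 5' difference of the beta-actin control probe sets, which tracks RNA integrity, was 0.687 ± 0.041 log2 units on LSD arrays and 0.787 ± 0.044 on saline arrays (SD, n = 3 each), without overlap (two-sided exact permutation p = 0.1, the smallest that 3 against 3 arrays can give). For Gapdh it was 0.492 ± 0.091 on LSD arrays and 0.523 ± 0.043 on saline arrays (SD, n = 3 each, exact permutation p = 0.7). The part of RNA integrity in the differences below was not tested. Transcripts of cortical interneurons were measured on all arrays, with somatostatin (Sst) between 9.42 and 9.56 log2 units and neuropeptide Y (Npy) between 7.74 and 7.90, although the values carry no detection calls and absence could not be tested.

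Transcript levels of the GABA genes were compared between LSD and saline arrays to learn whether inhibitory transmission genes respond within 90 min. None passed. In limma with Benjamini-Hochberg adjustment over all 8740 probe sets, 0 of 13 had an adjusted p under 0.05, against 0.0686% of all probe sets, and their adjusted p lay between 0.981 and 0.998. An exact Wilcoxon rank sum test also called 0, although its p cannot go below 0.1 with 3 arrays against 3. At an unadjusted limma p under 0.05 there was 1, the Gphn probe set, where 3.92% of all probe sets reached this level. The log2 changes ran from -0.20 for Gad1 to 0.25 for Gphn. Means after LSD were lower for 8 of the 13 probe sets, with a median change of -0.0086 log2 units, against 48.6% lower and a median of 0.0045 over all probe sets. Counted once per gene, by the probe set of highest mean as in the marker lists below, 6 of 8 genes had lower means with a median of -0.065 log2 units, against 48.3% of 4736 genes and a median of 0.0056. The count was 5 without Saline 1, without Saline 3 or with each array centred on its median, and the median was -0.042 without LSD 1. The mean level of these 8 did not overlap, by a narrow margin, at 6.401 to 6.439 log2 units on LSD arrays and 6.446 to 6.477 on saline arrays. Over all 13 probe sets it did overlap, at 6.15 to 6.20 on LSD arrays and 6.14 to 6.23 on saline arrays. How often the mean of a gene list separates these arrays was not worked out. The mean levels of the striatum list and of the choroid plexus and meninges list below did not overlap either. The 3 LSD values lay outside the range of the 3 saline values for 1 of 13 probe sets (7.69%), again Gphn, against 10.4% of all probe sets in either direction and 6.58% with LSD higher. The 95% interval of the change stayed within 1.5-fold in both directions for 12 of 13 probe sets, against 92.4% of all, on a scale where RMA compresses the changes of dim probe sets.

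**Figure D1:**
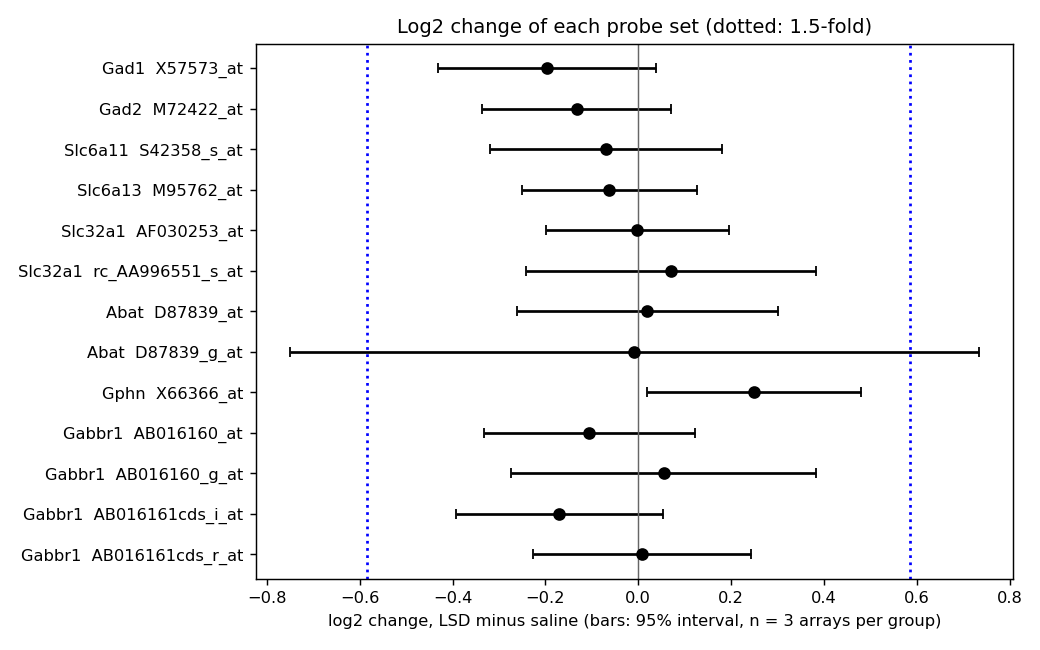
Log2 change, LSD minus saline (horizontal axis), of the 13 probe sets (rows), with points for the limma estimate and bars for its 95% interval (n = 3 arrays per group). The dotted lines mark 1.5-fold in either direction, and 12 of the 13 bars lie between them, while that of the second Abat probe set crosses both.

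Among the genes of synthesis, both decarboxylases had lower means after LSD, by less than the test could resolve. Gad1 encodes GAD67, the decarboxylase found throughout the neuron that makes most of its basal GABA. Its only probe set, X57573_at, read 8.06, 7.89 and 7.74 log2 units on LSD arrays 1, 2 and 3, against 8.13, 8.03 and 8.12 on saline arrays 1, 2 and 3. LSD 2 and LSD 3 lay below every saline array, and LSD 1 lay above Saline 2, so the groups overlapped by that 1 array. The means were 7.90 ± 0.16 after LSD and 8.09 ± 0.058 after saline (SD, n = 3 each), a difference of -0.20 ± 0.10 log2 units (SE) with a 95% interval from 0.741-fold to 1.03-fold (limma adjusted p = 0.981). Leaving out 1 array moved the difference between -0.28 (without LSD 1) and -0.12 (without LSD 3), always with the same sign. In bulk tissue fewer cells of a type and less RNA per cell cannot be told apart, here or for any gene below.

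The promoter of Gad1 is shown because this gene had the largest difference toward lower levels. Capitals mark the letters of sequences bound by Tcf4 and Arnt. The study proposes these factors as potential regulators of co-expression modules in rats treated chronically with LSD, Tcf4 for vesicle transport and Arnt for cell-cell adhesion. It did not propose them from the arrays used here. There it looked for the same module changes and detected no significant differences, for which it names the small sample size and the platform among possible reasons. The letters searched on both strands were CAGGTG (reverse CACCTG), an E-box of the kind that Tcf4 binds, GCGTG (reverse CACGC), the core of the element bound by Arnt with the aryl hydrocarbon receptor, and TGACGTCA, the palindromic cyclic AMP response element (CRE). Sequences are those of RefSeq on GRCr8, from 250 bases before to 50 after the start of the gene, and 6 of the 8 genes matched that table. The window of Gad1 is chr3:75777202-75777501 on the plus strand:
Gad1 promoter: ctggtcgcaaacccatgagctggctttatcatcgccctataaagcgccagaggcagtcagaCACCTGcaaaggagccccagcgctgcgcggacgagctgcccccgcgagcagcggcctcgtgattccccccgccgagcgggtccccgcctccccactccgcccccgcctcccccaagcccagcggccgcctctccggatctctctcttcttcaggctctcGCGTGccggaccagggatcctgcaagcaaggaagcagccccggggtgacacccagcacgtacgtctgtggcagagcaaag
It held 1 E-box match, CACCTG at -189 from the start, and 1 Arnt core, GCGTG at -30, which do not overlap. Of 33469 promoters of this length, 18.8% held the E-box letters, 29.7% the Arnt core and 1.83% the CRE. Among the 6 matched GABA genes, 5 windows held an Arnt core, 1 an E-box and 0 a CRE, and their GC content was between 63.7% and 75%. Such matches describe letters, not binding.

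Gad2 encodes GAD65, the decarboxylase attached to synaptic vesicles at the terminal. Its only probe set, M72422_at, read 4.62, 4.63 and 4.74 log2 units on LSD arrays 1, 2 and 3, against 4.81, 4.88 and 4.70 on saline arrays 1, 2 and 3. This probe set was dim, with a mean level at percentile 36.4 of all probe sets tested, against 90.1 for that of Gad1. LSD 1 and LSD 2 were the lowest of the 6, and LSD 3 lay above Saline 3. The means were 4.66 ± 0.068 after LSD and 4.80 ± 0.091 after saline (SD, n = 3 each), a difference of -0.13 ± 0.088 log2 units (SE, limma adjusted p = 0.981) that stayed between -0.18 and -0.09 when 1 array was left out. The arrays that set the lower means of the decarboxylases were not the same, since LSD 3 was the lowest array for Gad1 and the highest of the LSD arrays for Gad2.

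**Figure D2:**
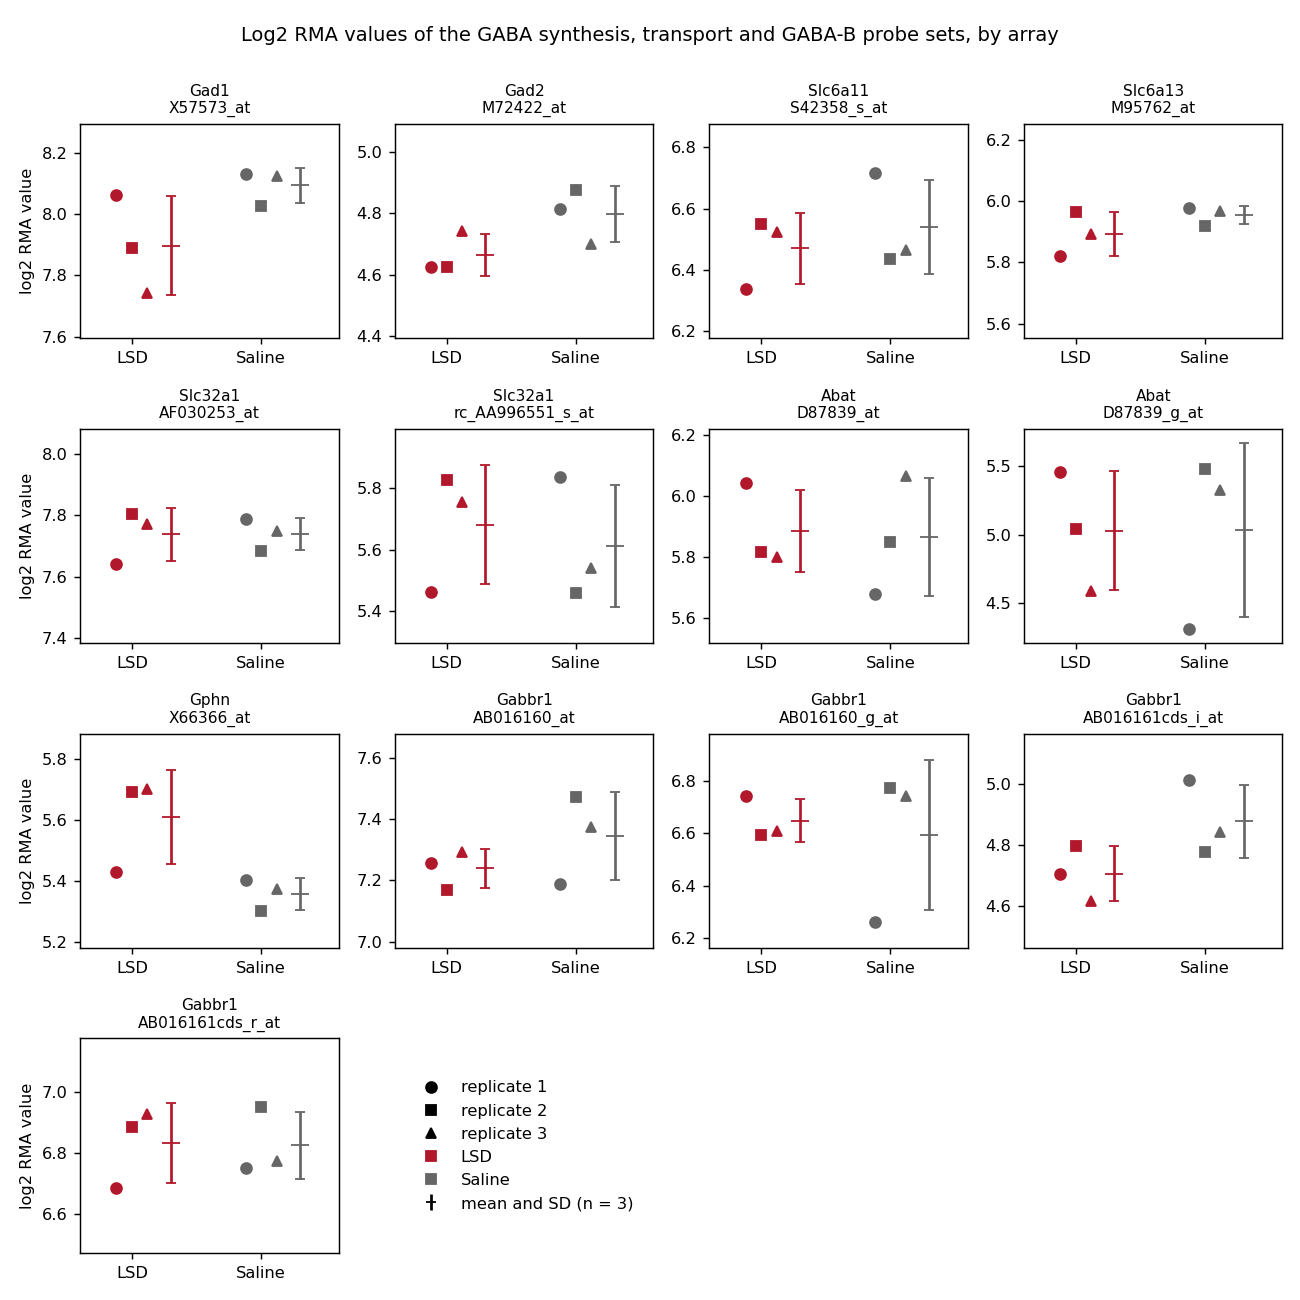
Log2 RMA values (vertical axis of each panel, which does not start at 0) of the 13 probe sets on each array, LSD in red left of saline in grey, with marker shapes for the replicate number and horizontal ticks with bars giving mean ± SD of 3 arrays. The LSD values lie above all saline values only in the Gphn panel, and the wide spread of the second Abat probe set, from 4.31 to 5.48, covers both groups.

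The transporters did not separate the groups. Slc32a1 encodes the vesicular GABA transporter, which fills synaptic vesicles with GABA and glycine. Its probe set AF030253_at read 7.64, 7.80 and 7.77 log2 units on LSD arrays 1, 2 and 3, against 7.79, 7.68 and 7.75 on saline arrays. The means were 7.74 ± 0.087 after LSD and 7.74 ± 0.053 after saline (SD, n = 3 each), with a difference of -0.0017 ± 0.086 log2 units (SE) and a 95% interval from 0.871-fold to 1.15-fold (limma adjusted p = 0.998). The other probe set, rc_AA996551_s_at, carries the suffix _s_at, which marks sets that can match several transcripts. It read 5.46, 5.83 and 5.76 on LSD arrays, against 5.84, 5.46 and 5.54 on saline arrays, a difference of 0.07 ± 0.14 log2 units (SE, limma adjusted p = 0.985). In both Slc32a1 probe sets LSD 1 and Saline 2 were the 2 lowest arrays and LSD 2 and Saline 1 the 2 highest, so the larger differences lay within the groups.

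Slc6a11 encodes the plasma membrane transporter GAT3, found mainly on astrocytes. Its only probe set, S42358_s_at, also carries the suffix _s_at of sets that can match several transcripts. It read 6.34, 6.55 and 6.52 log2 units on LSD arrays 1, 2 and 3, against 6.72, 6.44 and 6.47 on saline arrays. LSD 1 was the lowest and Saline 1 the highest, and the remaining 4 arrays had the LSD values above the saline values. The difference was -0.07 ± 0.11 log2 units (SE, limma adjusted p = 0.984), and without Saline 1 it was 0.02. Slc6a13 encodes GAT2, known in brain mainly from the leptomeninges and blood vessels. Its probe set M95762_at had the smallest range of the 13, with 5.82, 5.97 and 5.89 on LSD arrays and 5.98, 5.92 and 5.97 on saline arrays. The means were 5.89 ± 0.073 after LSD and 5.95 ± 0.030 after saline (SD, n = 3 each), a difference of -0.06 ± 0.082 log2 units (SE, limma adjusted p = 0.981) with a 95% interval from 0.841-fold to 1.09-fold. It was -0.03 without LSD 1 and -0.10 without LSD 2.

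Abat encodes the mitochondrial enzyme GABA transaminase, which degrades GABA in neurons and glia. The probe set D87839_at read 6.04, 5.82 and 5.80 log2 units on LSD arrays 1, 2 and 3, against 5.68, 5.85 and 6.07 on saline arrays, with means of 5.89 ± 0.13 after LSD and 5.87 ± 0.19 after saline (SD, n = 3 each) and a difference of 0.02 ± 0.12 (SE, limma adjusted p = 0.993). The other probe set from the same sequence record, D87839_g_at, had the widest range of all 13. It read 5.46, 5.04 and 4.59 on LSD arrays, against 4.31, 5.48 and 5.32 on saline arrays, and its difference of -0.0086 ± 0.32 log2 units (SE, limma adjusted p = 0.998) had a 95% interval from 0.595-fold to 1.66-fold. Saline 1 was the lowest array in both Abat probe sets. Without it the differences were -0.07 and -0.37. The near-zero change of the second probe set also moved to -0.22 without LSD 1, 0.21 without LSD 3, 0.21 without Saline 2 and 0.14 without Saline 3, and a change of 1.5-fold in Abat was not resolved by this probe set.

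**Figure D3:**
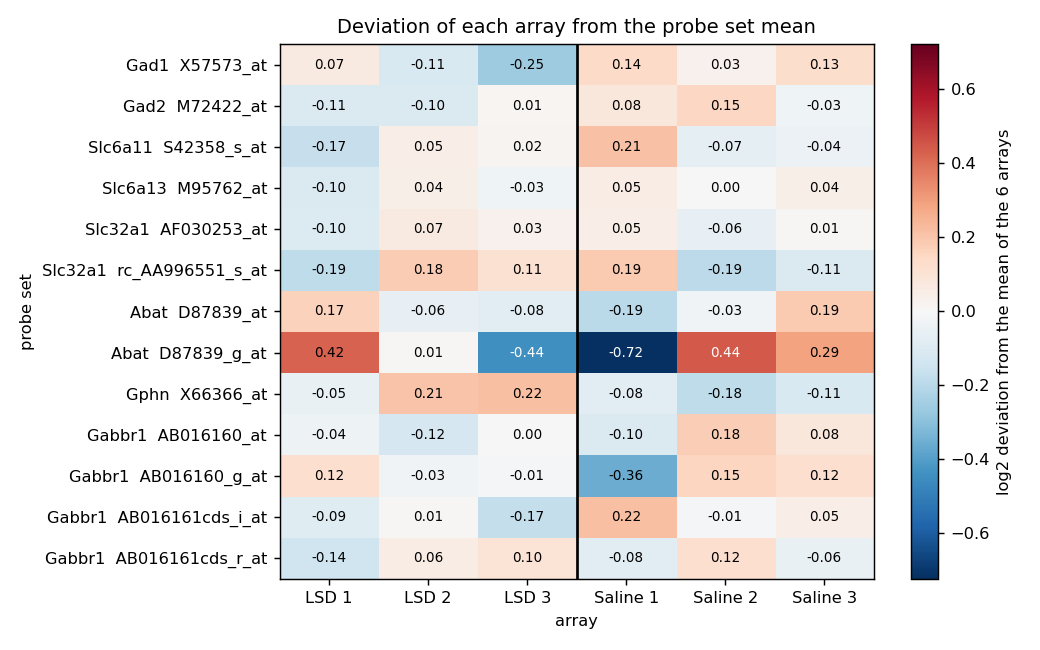
Deviation of each array (columns, LSD left of saline) from the mean of the 6 arrays for each of the 13 probe sets (rows), in log2 units, red above and blue below. On Saline 1 the values are above the mean for Gad1, Gad2, Slc6a11, Slc6a13, both Slc32a1 probe sets and Gabbr1 AB016161cds_i_at (0.22). They are below it for both Abat probe sets, Gphn and the other Gabbr1 probe sets, with AB016160_g_at at -0.36. The deviation of -0.72 in Abat is the largest of the plot.

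Gphn encodes gephyrin, the scaffold that clusters GABA-A and glycine receptors at inhibitory synapses and that also takes part in the synthesis of the molybdenum cofactor. Its only probe set, X66366_at, read 5.43, 5.69 and 5.70 log2 units on LSD arrays 1, 2 and 3, against 5.40, 5.30 and 5.37 on saline arrays. All 3 LSD values lay above all 3 saline values, LSD 1 only just above Saline 1 and LSD 2 and LSD 3 well clear. The means were 5.61 ± 0.15 after LSD and 5.36 ± 0.052 after saline (SD, n = 3 each), a difference of 0.25 ± 0.10 log2 units (SE), or 1.19-fold, with a 95% interval from 1.01-fold to 1.39-fold. The unadjusted limma p was 0.0367 and the adjusted p 0.981, so the difference did not pass, and 256 of the 8740 probe sets had a lower p. The sign was kept when any 1 array was left out, with a range from 0.20 (without LSD 3) to 0.34 (without LSD 1). The promoter window of Gphn is shown as that of the gene with the largest difference toward higher levels, at chr6:102687403-102687702 on the plus strand of GRCr8, with the same letters in capitals:
Gphn promoter: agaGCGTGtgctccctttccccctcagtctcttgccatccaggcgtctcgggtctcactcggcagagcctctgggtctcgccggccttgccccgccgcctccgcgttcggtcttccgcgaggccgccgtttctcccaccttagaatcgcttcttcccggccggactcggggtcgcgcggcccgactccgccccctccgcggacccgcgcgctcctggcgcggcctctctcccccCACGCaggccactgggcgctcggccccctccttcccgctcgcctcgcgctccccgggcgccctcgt
It held 2 Arnt cores, GCGTG at -247 and CACGC at -16 from the start, and neither of the other sequences.

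Gabbr1 encodes the subunit of the GABA-B receptor that binds GABA, while its partner Gabbr2 couples to the G protein. Its 4 probe sets, a pair from each of 2 sequence records, did not share a direction. The set AB016160_at read 7.26, 7.17 and 7.29 log2 units on LSD arrays 1, 2 and 3, against 7.19, 7.47 and 7.38 on saline arrays, a difference of -0.11 ± 0.099 (SE, limma adjusted p = 0.981). Saline 1 lay among the LSD arrays here, and the difference was -0.18 without it and -0.04 without Saline 2. The companion set AB016160_g_at read 6.74, 6.59 and 6.61 on LSD arrays, against 6.26, 6.77 and 6.74 on saline arrays, and its difference of 0.05 ± 0.14 (SE, limma adjusted p = 0.990) was -0.11 without Saline 1. The sets of the other record carry the suffixes _i_at and _r_at, which mark sets designed with fewer probes or with relaxed rules. The first, AB016161cds_i_at, read 4.71, 4.80 and 4.62 on LSD arrays, against 5.01, 4.78 and 4.84 on saline arrays, a difference of -0.17 ± 0.097 (SE, limma adjusted p = 0.981) that was -0.10 without Saline 1. The second, AB016161cds_r_at, ran from 6.69 to 6.93 on LSD arrays and from 6.75 to 6.95 on saline arrays, a difference of 0.0077 ± 0.10 (SE, limma adjusted p = 0.995). With the probe sets of a gene averaged on each array and the fit run on genes, Gabbr1 differed by -0.05 ± 0.079, Slc32a1 by 0.03 ± 0.10 and Abat by 0.0057 ± 0.21 log2 units (SE), and none passed (limma adjusted p between 0.969 and 0.997).

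Other genes of GABA handling and GABA-B signalling were also without a call. Of 12 genes measured from a list of 25, 0 passed in either direction in limma, 5 had higher and 7 lower means by their brightest probe set, and 0 had an unadjusted p under 0.05. By brightest probe set, those of lowest p were Kcnj6, a subunit of the potassium channels that GABA-B receptors open, and Gabbr2. Kcnj6 read 4.65, 4.17 and 4.07 log2 units on LSD arrays, against 3.93, 4.16 and 4.06 on saline arrays, a difference of 0.25 ± 0.16 (SE, limma adjusted p = 0.981) in which LSD 1 stood alone above the other 5 arrays. Gabbr2 read 9.32, 9.40 and 9.29 on LSD arrays, against 9.60, 9.65 and 9.29 on saline arrays, a difference of -0.17 ± 0.11 (SE, limma adjusted p = 0.981), and its 2 further probe sets differed by 0.01 and 0.0099. Of all 23 probe sets of this list, 1 had LSD values above all saline values, against 6.58% of all probe sets. It was a Glul set, at 0.16 ± 0.081 (SE, limma adjusted p = 0.981). The other Glul sets, among them the brightest, differed by 0.058, 0.093 and 0.11 and overlapped. GABA-A receptor subunits, some of which bind gephyrin, had 7 of 15 measured genes with higher and 8 with lower means, 0 of them passing, with a median of -0.0013 log2 units. Gabra2 differed by 0.22 ± 0.089 and Gabrb2 by 0.18 ± 0.090 (SE, limma adjusted p = 0.981 for both). In the brightest probe sets of these 2 of the 15, as in Gphn, the LSD values lay above all saline values. By probe set this held for 2 of 20, against 6.58% of all probe sets. The other Gabrb2 probe set differed by 0.017, and its groups overlapped. The 5 measured genes of glycine receptors and transporters had 2 higher and 3 lower means with 0 passing, and those of lowest p were Glra1 (-0.28 ± 0.17) and Slc6a5 (-0.07 ± 0.12).

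**Figure D4:**
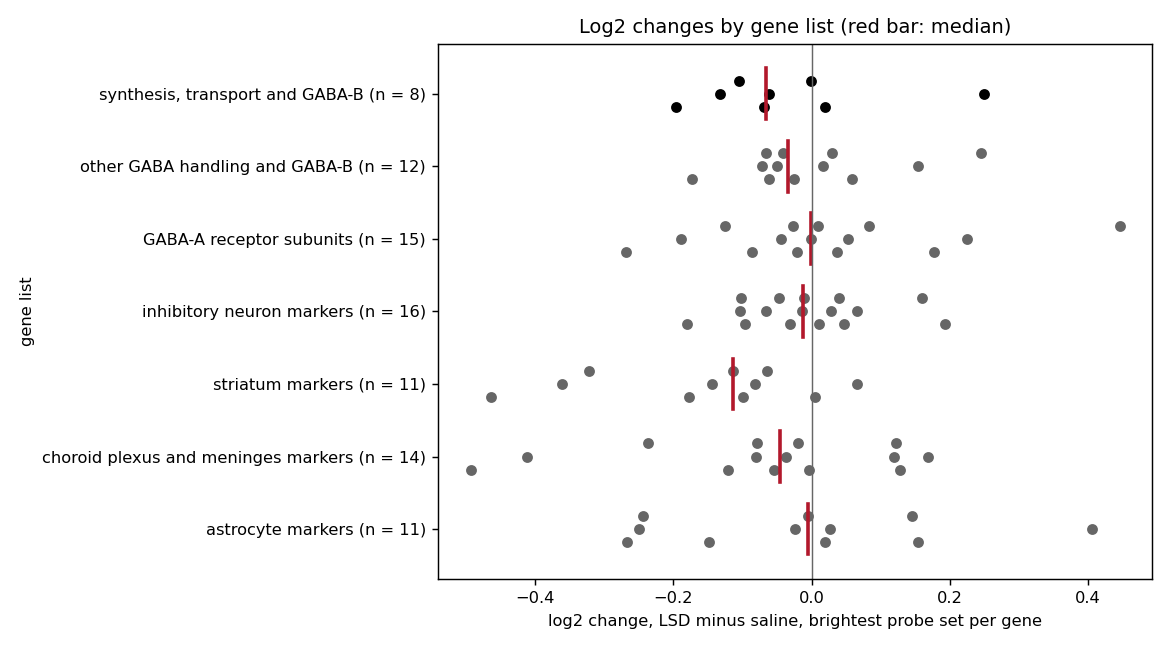
Log2 change, LSD minus saline (horizontal axis), of the genes of each list (rows), with 1 point per gene from its brightest probe set and a red bar for the median (n = 3 arrays per group). The 8 GABA genes spread over both sides of 0, and the striatum markers have the lowest median, at -0.11.

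Markers of cells and tissues that could carry these transcripts were compared between the groups in the same way. Their part in the differences above was not tested. Most striatal neurons use GABA, and among 11 measured striatum markers 9 had lower means after LSD, with 0 passing. Their mean level lay between 5.94 and 6.03 log2 units on LSD arrays and between 6.10 and 6.16 on saline arrays, without overlap. Of single probe sets, 10.4% did not overlap in either direction, and no such share was worked out for the means of lists. The proenkephalin gene Penk differed by -0.46 ± 0.094 and Arpp21 by -0.36 ± 0.099 (SE, limma adjusted p = 0.341 and 0.874). Inhibitory neuron markers of the cortex had 7 higher and 9 lower means of 16 with 0 passing, and their mean level overlapped, at 6.47 to 6.53 on LSD arrays and 6.44 to 6.56 on saline arrays. Among them the calcium buffer gene Pvalb differed by 0.19 ± 0.097 and Reln by 0.16 ± 0.087 (SE, limma adjusted p = 0.981 for both). Markers of choroid plexus and meninges, listed together, had 10 lower and 4 higher means of 14 with 0 passing. Their mean level did not overlap, at 6.24 to 6.26 on LSD arrays and 6.30 to 6.34 on saline arrays. Those of lowest p were Ttr at -0.49 ± 0.088 and Igf2 at -0.24 ± 0.085 (SE, limma adjusted p = 0.238 and 0.981). The 4 higher means were those of Col1a2 (0.17), Col1a1 (0.13), Ptgds (0.12) and Lum (0.12), so the list did not share a direction. Astrocyte markers, which bear on Slc6a11 and Abat, had 5 higher and 6 lower means of 11 with 0 passing, and their mean level overlapped, at 8.51 to 8.58 on LSD arrays and 8.51 to 8.63 on saline arrays, with Cst3 at -0.27 ± 0.086 and Aqp4 at 0.41 ± 0.13 (SE, limma adjusted p = 0.981 for both). Of the astrocyte markers, Cst3, Aqp4, S100b (-0.24) and Slc1a3 (-0.25) had an unadjusted limma p under 0.05, as did 3.92% of all probe sets. Aqp4 was dim, at a mean of 3.79 log2 units over the 6 arrays, as was Neurod1 below, at 3.26. On this scale no marker is at 0. None of the remaining lists had a gene past the threshold. Excitatory neuron markers had 4 lower means of 7, with Camk2a at -0.19 and Neurod1 at -0.19, oligodendrocyte markers 4 of 8, with Ugt8 at 0.24 and Mag at 0.12, microglia markers 3 of 7, with Ptprc at -0.22 and C1qb at 0.11, and endothelial markers 3 of 7, with Flt1 at 0.13 and Vwf at -0.12.

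The genes whose profile over the 6 arrays was most like that of Gad1, among the brightest probe sets of 4728 other genes, were Matr3 (Pearson r = 0.986), Atp2b2 (r = 0.979) and Ptn (r = 0.965). Those most like Gad2, whose probe set was dim, were Krt20 (r = 0.987), Prp15 (r = 0.970) and Klk8 (r = 0.967). With 6 arrays that share their normalization, 25 genes exceeded an r of 0.9 with Gad1 and 8 with Gad2, and the lists for the decarboxylases have no gene in common among these first 3.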

How the data were processed

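The deposited values are log2 expression values that the authors obtained from the raw arrays with rma from the affy package (background correction, quantile normalization across arrays, probe summary). The version and any genome build are not given in the sources used here. Quantile normalization hides a change shared by most transcripts. The table held 8799 probe sets, of which 59 were controls and 8740 were tested. The platform annotation gave 7006 of them 1 symbol, 308 several and 1426 none, and 0 further probe sets name a member together with another gene. By gene ID 6985 matched RefSeq genes of GRCr8, used for names and promoter sequences, and 0 symbols changed. Arrays have no read depth, and their number limits the precision.

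LSD was compared with saline in limma 3.58.1 under R 4.3.3 (lmFit and eBayes, two-sided, on all 6 arrays and without covariates), with p-values adjusted by Benjamini-Hochberg over all 8740 probe sets and a threshold of 0.05. The fit was tested on simulated data. Every probe set of the 8 genes is named, together with up to 2 genes of lowest p per other list and the 3 genes most like Gad1 and Gad2. In some lists further genes are named, among them all those with higher means in choroid plexus and meninges. Genes with several probe sets were counted in lists by the one with the highest mean, as in the study. Members, lists and tests were chosen with earlier results of these data known. Alternatives were other scalings, a filter on dim probe sets, control probe sets kept, eBayes with trend and robust options, weights per array, a replicate block, other gene summaries, an exact Wilcoxon test and omission of 1 array at a time.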

Additional observations from a re-analysis of the deposited data

How the results depend on the processing

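The filter on dim probe sets left out 3 of the 13 (Gad2, Abat D87839_g_at and Gabbr1 AB016161cds_i_at), and in the alternatives that gave a value 0 of the 13 passed, and the lowest adjusted p was 0.127 (Gphn with array weights, where Gad1 had 0.196). The sign was kept under every alternative run for 6 probe sets, those of Gad1, Gad2, Slc6a13 and Gphn and the Gabbr1 sets AB016160_at and AB016161cds_i_at, and turned in 22 of 97 values over the other 7. Centring each array on its median turned Slc32a1 AF030253_at to 7.97e-05, cyclic loess turned Gabbr1 AB016161cds_r_at to -0.0051, and array weights turned Slc6a11 to 0.050, Slc32a1 AF030253_at to 0.049, Abat D87839_at to -0.14 and Gabbr1 AB016160_g_at to -0.11 log2 units. Leaving out 1 array moved Slc6a11 between -0.12 and 0.019, Slc32a1 AF030253_at between -0.035 and 0.048, Slc32a1 rc_AA996551_s_at between -0.0068 and 0.18, Abat D87839_at between -0.073 and 0.12, Abat D87839_g_at between -0.37 and 0.21, Gabbr1 AB016160_g_at between -0.11 and 0.15, and Gabbr1 AB016161cds_r_at between -0.040 and 0.081. The cause was not tested. Over all probe sets 6 passed. This count was 16 above the median level, 20 with trend and robust eBayes, 42 with array weights, 1 with the brightest probe set per gene, 0 in the exact Wilcoxon rank sum test, whose smallest p is 0.1, and between 0 and 3 when 1 array was left out, with 3 without Saline 1. The replicate number as a block gave 0, and deviations of same-numbered arrays correlated at -0.02, -0.23 and 0.17, so the numbers were not taken to pair the arrays. The difference in the 3' minus 5' value was -0.031 for Gapdh in place of -0.10 for beta-actin.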
